A study of Mus musculus with 22 samples.

Results

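The genes described here are 30 platelet and megakaryocyte genes, followed in RNA from whole mouse lung. They were chosen by name, and all 30 were found among the 54532 genes of the deposited count table. A filter on low counts kept 29 of them, and Gfi1b, which had 0 to 7 counts per library, was not tested. Of the 30, 11 are called platelet-restricted below, because their mRNA is known mainly from platelets and megakaryocytes: Pf4, Ppbp, Itga2b, Gp1ba, Gp1bb, Gp5, Gp6, Gp9, Tubb1, Treml1 and Clec1b. The other 19 were grouped, also by prior knowledge, with endothelium, leukocytes, red cell precursors or mast cells. Both groupings are labels that were not tested here, and other lung cells may express the 11 too.

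The lungs came from young male C57BL6/j mice that spent 8 days in hypoxia or normoxia. During that time the mice received ABT-263 at 50 mg/kg/day or its vehicle. There were 5 libraries of hypoxia with ABT-263, 6 of hypoxia with vehicle, 6 of normoxia with ABT-263 and 5 of normoxia with vehicle, the control condition. The labels give neither the oxygen level nor an exact age, and they do not say whether a library came from 1 mouse or a pool. The p-values therefore measure only the spread between these libraries. ABT-263 (navitoclax) is a drug against the survival proteins BCL-XL, BCL-2 and BCL-W, and in research it serves to clear senescent cells.

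Megakaryocytes are large polyploid cells that shed platelets into the blood. Platelets have no nucleus and carry mRNA left over from the megakaryocyte. Mouse lungs hold megakaryocytes and much circulating blood, so both can contribute to platelet mRNA in a lung extract. Platelets bind vessel walls through glycoprotein and integrin receptors, respond to nucleotides and thrombin, and release chemokines and adhesive proteins from granules. Their lifespan is known to depend on BCL-XL, and a fall in platelet number is a known effect of ABT-263 in patients.

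GATA and ETS factors are the best known regulators of megakaryocyte genes, so the promoters of 4 restricted members with different responses are shown. RefSeq gave a promoter for 24 of the 30 members, each a 300-base window with 250 bases before the start and the rest after it (GRCm38.p6). Itgb3, Thbs1, Gng11, Rgs18, Nfe2 and Bin2 had none. Gp1ba and Gp5 code for subunits of the von Willebrand factor receptor, Itga2b for the alpha subunit of the fibrinogen receptor, and Pf4 for a granule chemokine. The letters searched for GATA factors were AGATAA and the variant form TGATAA. Those searched for ETS factors were CAGGAA and the variant form CGGAAG. Sequences run 5′ to 3′ in the direction of the gene, and capitals mark these letters on either strand, a match on the strand opposite the gene appearing as its reverse complement. Overlapping matches were each counted.
Gp1ba, chr11:70638872-70639171, plus strand: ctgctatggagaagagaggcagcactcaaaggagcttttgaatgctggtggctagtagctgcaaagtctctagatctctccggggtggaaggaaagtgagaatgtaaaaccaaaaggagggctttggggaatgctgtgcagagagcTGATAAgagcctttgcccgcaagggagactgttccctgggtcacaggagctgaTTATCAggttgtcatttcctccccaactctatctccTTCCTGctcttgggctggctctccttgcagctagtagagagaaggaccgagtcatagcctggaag
Gp5, chr16:30310732-30311031, minus strand: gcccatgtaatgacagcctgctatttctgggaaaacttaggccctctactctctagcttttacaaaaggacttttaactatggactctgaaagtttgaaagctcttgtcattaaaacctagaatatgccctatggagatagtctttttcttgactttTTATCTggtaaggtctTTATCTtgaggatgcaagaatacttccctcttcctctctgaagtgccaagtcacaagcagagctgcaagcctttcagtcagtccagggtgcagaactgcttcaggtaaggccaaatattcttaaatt
Itga2b, chr11:102469834-102470133, minus strand: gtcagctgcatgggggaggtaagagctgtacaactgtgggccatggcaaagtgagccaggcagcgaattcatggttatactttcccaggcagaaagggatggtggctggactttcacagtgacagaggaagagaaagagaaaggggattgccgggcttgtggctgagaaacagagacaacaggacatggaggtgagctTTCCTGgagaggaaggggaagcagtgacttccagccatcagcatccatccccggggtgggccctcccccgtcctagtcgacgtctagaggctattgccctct
Pf4, chr5:90772185-90772484, plus strand: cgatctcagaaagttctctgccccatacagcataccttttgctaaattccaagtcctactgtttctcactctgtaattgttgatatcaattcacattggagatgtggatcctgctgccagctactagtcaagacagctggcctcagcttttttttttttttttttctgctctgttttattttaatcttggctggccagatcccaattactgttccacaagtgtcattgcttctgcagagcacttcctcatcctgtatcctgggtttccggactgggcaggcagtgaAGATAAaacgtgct

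The Gp1ba window held 2 GATA matches and 1 ETS match, and the Gp5 window 2 GATA matches. The Itga2b window held 1 ETS match, and the Pf4 window 1 GATA match that lies after the start. The start used for Itga2b lies 239 bases inside the gene as placed by GENCODE. Most of its window is therefore not upstream of the GENCODE start. A GATA match was found in 9 of the 24 member promoters (5 of 11 restricted ones), against 18.6% of all 32851 promoters of this length. An ETS match was found in 9 of 24 (6 of 11), against 42.8%, and both in 2 of 24, against 7.0%. A match is a description of letters and not a binding site.

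Libraries held 11509007 to 15744193 expected counts. In 3 libraries, replicate 1 of hypoxia ABT-263, hypoxia vehicle and normoxia ABT-263, the treatment given in the title was not the one in the tag. Titles set the groups here, and results for the members that change without these libraries are given with that value. Single genes outside the members were looked at in the main fit only. The tissue markers of lung (surfactant, alveolar, airway, stromal and endothelial genes) were abundant in every group, at 72800 to 133000 summed CPM (counts scaled to library size with TMM factors). In bulk RNA, fewer cells of a type and less of their RNA per cell cannot be told apart.

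Per kilobase of exon and averaged over all 22 libraries, Gng11, a G protein gamma subunit, was the most abundant member at 223 CPM per kilobase. Pf4 followed at 34.3 and the calmodulin-binding protein Nrgn at 24, then Ppbp, the precursor of a neutrophil-attracting chemokine, at 20.3 CPM per kilobase. At the low end were Gp6, the collagen receptor (0.512), Gata1, a transcription factor of megakaryocytes, red cells and mast cells (0.414), and the transcription factor Gfi1b (0.0862). Gng11 ranked first and Gata1 and Gfi1b last in each of the 4 groups, but the order of the genes between them depended on the group. In normoxia ABT-263 lungs Nrgn stood above Pf4 (40.7 ± 12.1 and 38.7 ± 8.73 CPM per kilobase, SD, n = 6), and in hypoxia vehicle lungs Ppbp stood above Nrgn (12.2 ± 2.53 and 11.7 ± 2.09, n = 6), in both cases by less than the spread between libraries. Gng11 is also an endothelial gene, so its rank need not reflect platelets. Across the 29 tested members the mean level was highest in the normoxia ABT-263 group for 24. It was lowest in the hypoxia ABT-263 group for 16 and in the hypoxia vehicle group for 9.

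**Figure D1:**
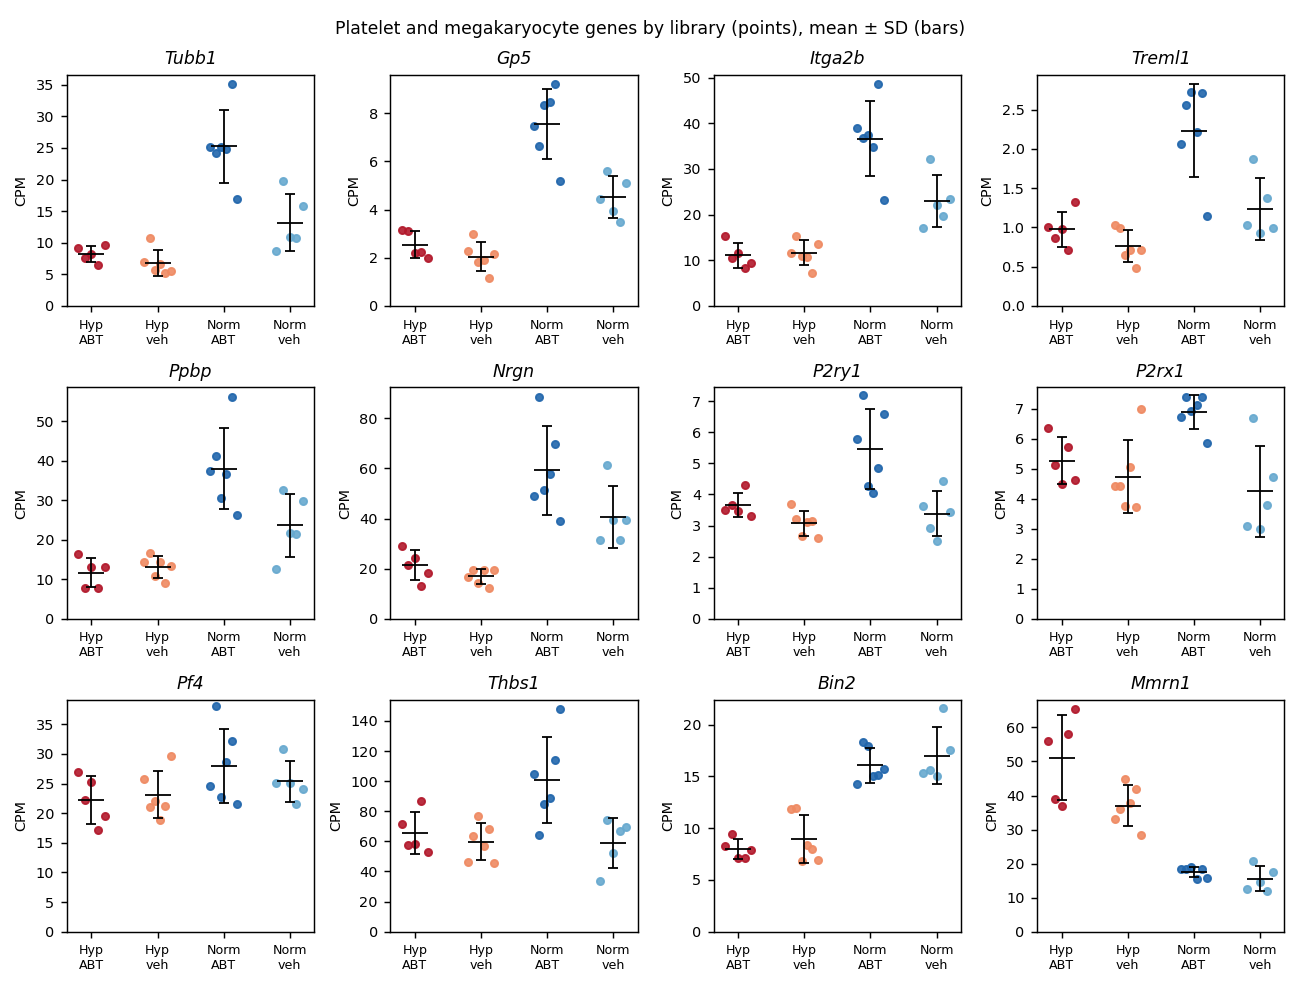
Level of 12 members in every library, in CPM, for the hypoxia ABT-263, hypoxia vehicle, normoxia ABT-263 and normoxia vehicle groups; points are libraries and bars are mean ± SD (n = 5, 6, 6 and 5). For Tubb1, Gp5, Itga2b and Ppbp the normoxia ABT-263 libraries are the highest group and both hypoxia groups are low, Pf4 is nearly level, and Mmrn1 is high in hypoxia.

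The first comparison asked what ABT-263 did to platelet genes in normoxic lungs. Levels lay higher with ABT-263 than with vehicle for 25 of the 29 members, with a median log2 fold change of 0.45, against 0.01 over all 16638 genes tested. Only Tubb1 passed the test. All 11 platelet-restricted members had positive log2 fold changes, with a median of 0.68, from 0.14 for Pf4 to 0.94 for Tubb1. By edgeR's quasi-likelihood test (two-sided, Benjamini-Hochberg over all genes, threshold 0.05), 0.108% of all genes were higher and 0.427% lower, 0.535% in either direction. Of the members, 15 had an unadjusted p under 0.05. Of all 16638 genes, more than 1546 and fewer than 2385 had such a p here too. These bounds are the counts given below for the interaction and for ABT-263 in hypoxia.

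Tubb1 codes for the beta-tubulin of the microtubule coil that keeps platelets disc-shaped (ENSMUSG00000016255; GRCm38 chromosome 2, 174450695 to 174457882, plus strand). In normoxia its level was 17 CPM at the lowest, 25 at the median and 35.1 at the highest of 6 ABT-263 lungs, against 8.63, 19.7, 10.9, 10.7 and 15.8 CPM in the vehicle lungs. The groups overlapped only in that the lowest ABT-263 lung lay under the highest vehicle lung. The log2 fold change was 0.94 ± 0.20 (SE; fold 1.92, adjusted p = 0.0311). With the 3 libraries of conflicting labels left out it was 0.93 with an adjusted p of 0.0991, and with treatment read from the tag 0.73 with an adjusted p of 0.527. Without normoxia vehicle replicate 1, 3 or 4, or normoxia ABT-263 replicate 1, 3, 4 or 5, the adjusted p lay above the threshold too, at up to 0.153.

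The other adhesion receptors and the nucleotide receptors leaned the same way without passing. Gp5 (ENSMUSG00000047953; GRCm38 chromosome 16, 30307685 to 30310779, minus strand) stood at 5.19, 7.91 and 9.21 CPM (lowest, median and highest of 6) in normoxia ABT-263 lungs, against 4.45, 5.62, 3.93, 3.49 and 5.1 CPM in normoxia vehicle lungs. These groups overlapped at their edges, and the log2 fold change was 0.74 ± 0.18 (adjusted p = 0.0674). P2ry1, an ADP receptor (ENSMUSG00000027765; chromosome 3, 61002795 to 61008982, plus strand), had 4.06, 5.32 and 7.21 CPM with ABT-263, against 3.63, 2.93, 2.5, 4.42 and 3.45 CPM with vehicle. Here too the lowest ABT-263 lungs and the highest vehicle lung overlapped (0.69 ± 0.17, adjusted p = 0.0573). P2rx1, an ATP-gated channel, had 5.86, 7.02 and 7.4 CPM with ABT-263, against 3.08, 6.67, 3, 3.79 and 4.71 CPM with vehicle, where replicate 2 alone reached the ABT-263 range (0.70 ± 0.18, adjusted p = 0.0817). Treml1, a receptor stored in alpha granules, had 1.15, 2.39 and 2.72 CPM with ABT-263, against 1.03, 1.87, 0.928, 1.37 and 0.994 CPM with vehicle, with replicate 6 of the ABT-263 group among the vehicle values (0.85 ± 0.24, adjusted p = 0.104).

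By role, all 9 adhesion receptors were on the positive side (median 0.68), as were all 4 nucleotide and thrombin receptors (0.61). The 6 granule proteins were split 4 to 2 (median 0.16) and the 8 cytoskeletal and signalling genes 6 to 2 (0.12). F2rl2, a thrombin receptor that acts as a cofactor on mouse platelets, was the only member whose ABT-263 lungs in normoxia all lay above all vehicle lungs (0.53 ± 0.21, adjusted p = 0.251), a pattern shown by 1.09% of all genes. Thbs1, the adhesive glycoprotein thrombospondin, had 64.3, 96.9 and 148 CPM with ABT-263, against 33.4, 74.2, 52.1, 66.8 and 69.5 CPM with vehicle, overlapping at the lowest ABT-263 lung (0.77 ± 0.22, adjusted p = 0.107). Pf4 (ENSMUSG00000029373; chromosome 5, 90772435 to 90773383, plus strand) differed little, with 21.5, 26.6 and 38 CPM with ABT-263, against 25.1, 30.9, 25.1, 21.6 and 24.1 CPM with vehicle. Its groups overlapped across most of their ranges (0.14 ± 0.14, 95% interval −0.16 to 0.43, adjusted p = 0.727). Thbs1 and Pf4, and Ppbp below, are given per library by a choice made after their values were seen.

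The count of members called in normoxia rested on single libraries. It was 0 without normoxia vehicle replicate 1, 3 or 4 or normoxia ABT-263 replicate 1, 4 or 5, 2 without normoxia ABT-263 replicate 6 or hypoxia vehicle replicate 5, and 6 without normoxia vehicle replicate 2. DESeq2 called 7 members, all higher, and limma-voom 4. The calls over all genes moved as well, from 89 in the main fit to 183 without normoxia vehicle replicate 2 and 1 without normoxia vehicle replicate 4. Over the other alternatives, DESeq2 and limma-voom among them, they ranged from 0 to 327. Leaving out 1 library at a time kept the median over the restricted members within 0.57 and 0.81.

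In hypoxic lungs the platelet genes had no shared direction with ABT-263, which does not show that the drug had no effect on them there. Of 29 members 13 were on the positive and 16 on the negative side, with a median log2 fold change of −0.02, against −0.01 over all genes. No member was called by edgeR, DESeq2 or limma-voom, and edgeR called 0.301% of all genes. With edgeR 2 of the 29 members had an unadjusted p under 0.05, as did 2385 of all 16638 genes. The restricted members had a median of −0.03, which stayed within −0.17 and 0.10 when any 1 library was dropped.

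Tubb1 had 9.16, 7.56, 8.27, 6.44 and 9.58 CPM in hypoxia ABT-263 lungs, against 5.18, 6.21 and 10.7 CPM (lowest, median and highest of 6) in hypoxia vehicle lungs. The vehicle range enclosed all ABT-263 values, and the log2 fold change was 0.27 ± 0.22 (95% interval −0.19 to 0.72, adjusted p = 0.611). Gp5 had 3.17, 3.13, 2.21, 2.26 and 1.98 CPM with ABT-263, against 1.18, 2.04 and 2.97 CPM with vehicle (0.31 ± 0.21, 95% interval −0.12 to 0.75, adjusted p = 0.519). P2ry1 had 3.51, 3.65, 3.48, 4.31 and 3.3 CPM, against 2.6, 3.14 and 3.71 CPM (0.25 ± 0.17, adjusted p = 0.535). Both genes overlapped between the groups. P2rx1 lay at 0.16 ± 0.18 (adjusted p = 0.736) and Treml1 at 0.34 ± 0.28 (adjusted p = 0.609). The member with the smallest p was Mmrn1, multimerin, which binds coagulation factor V, at 0.46 ± 0.15 (adjusted p = 0.161).

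Averaged over both oxygen conditions, Tubb1, Gp5 and P2ry1 passed the test as higher with ABT-263, and no member as lower. Over all genes 1.23% were higher, 1.31% lower and 2.54% called in either direction. The log2 fold changes were 0.60 ± 0.15 for Tubb1 (adjusted p = 0.0336), 0.53 ± 0.14 for Gp5 (adjusted p = 0.0444) and 0.47 ± 0.12 for P2ry1 (adjusted p = 0.0372). The median over members was 0.24. These calls were fragile: none remained without the 3 libraries of conflicting labels, nor without any one of normoxia vehicle replicates 1 and 3, normoxia ABT-263 replicate 1, hypoxia vehicle replicates 3 and 5 and hypoxia ABT-263 replicate 5. Of the members, 1 was called without any one of normoxia vehicle replicates 4 and 5, hypoxia vehicle replicates 1 and 6 and hypoxia ABT-263 replicates 2 and 4, and 5 without normoxia vehicle replicate 2. Over all genes the calls ranged from 164 to 649 when 1 library was dropped, around 423 in the main fit.

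The difference between the ABT-263 effects in hypoxia and in normoxia was tested directly as an interaction. It was called for no member and for 0% of all genes with edgeR. An unadjusted p under 0.05 was seen for 9 members and for 1546 of all 16638 genes. DESeq2 and limma-voom called no member either, and over all genes DESeq2 called 17 and limma-voom 0. Of the members, 26 of 29 had a negative difference, that is a smaller log2 fold change in hypoxia than in normoxia, with a median of −0.32, against −0.02 over all genes. All 11 restricted members were negative (median −0.50). The widest differences were Gp1ba at −0.88 ± 0.37 (95% interval −1.65 to −0.12, adjusted p = 0.463), Ppbp at −0.86 ± 0.34 (−1.58 to −0.14, adjusted p = 0.449) and Itga2b at −0.75 ± 0.28 (−1.32 to −0.17, adjusted p = 0.407). For Tubb1 the difference was −0.68 ± 0.30 (−1.29 to −0.06, adjusted p = 0.482). The ABT-263 effect in hypoxia was thus not shown to differ from that in normoxia for any member.

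**Figure D2:**
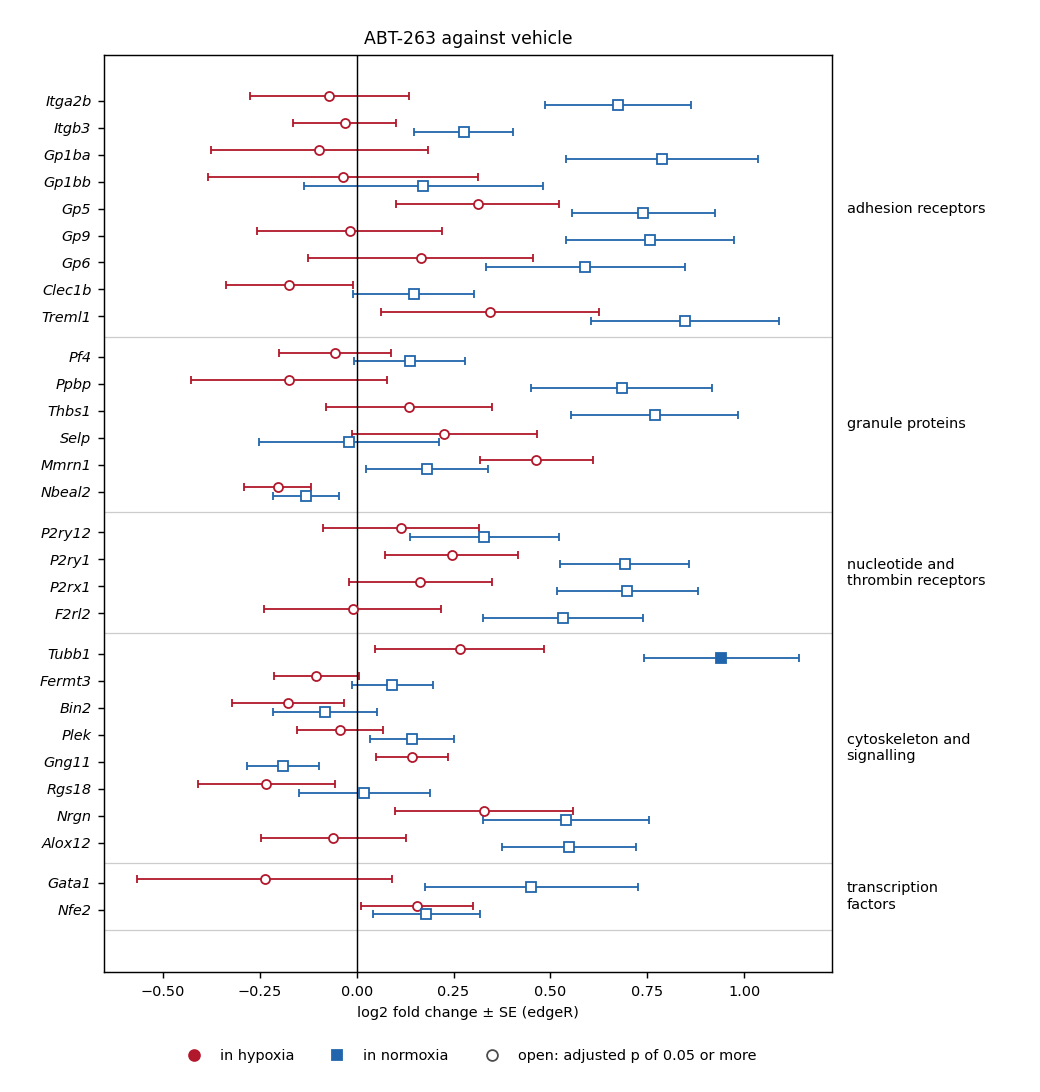
Log2 fold change ± SE of ABT-263 against vehicle for the 29 tested members, grouped by role, in hypoxia (circles) and normoxia (squares); filled symbols mark an adjusted p under 0.05. In normoxia most adhesion and nucleotide receptors sit between 0.5 and 0.9 and Tubb1 alone is filled, while in hypoxia the values lie on both sides of 0.

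The next comparison asked what hypoxia did to platelet genes without ABT-263. In vehicle lungs 14 of 29 members were lower in hypoxia and 2 were higher, and 13 did not pass. Over all genes 12.8% were lower, 13.5% higher and 26.3% called in all. The median log2 fold change of the members was −0.58, against −0.00 over all genes, and −0.83 for the restricted members, of which 6 were lower and 5 did not pass. Those lower were Gp5, Gp6, Gp9, Itga2b and Itgb3 among the adhesion receptors, Ppbp, F2rl2, and Tubb1, Fermt3, Bin2, Plek, Nrgn, Alox12 and Nfe2. Mmrn1 and Gng11 were higher. The normoxia vehicle libraries are also those against which ABT-263 was compared in normoxia, so these results are not independent.

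Among the adhesion receptors 5 of 9 were lower and all 9 were on the negative side. Gp5 had 1.18, 2.04 and 2.97 CPM (lowest, median and highest of 6) in hypoxia vehicle lungs, against 4.45, 5.62, 3.93, 3.49 and 5.1 CPM in normoxia vehicle lungs. Every hypoxic lung lay below every normoxic lung (−1.14 ± 0.20, adjusted p = 0.000169). Itga2b (ENSMUSG00000034664; chromosome 11, 102453297 to 102470122, minus strand) had 7.26, 11.4 and 15.4 CPM in hypoxia, against 17.1, 32.1, 22.1, 19.7 and 23.5 CPM in normoxia, again without overlap (−0.98 ± 0.20, adjusted p = 0.000873). Its partner Itgb3 was at −0.42 ± 0.13 (adjusted p = 0.0188), the collagen receptor Gp6 at −0.87 ± 0.27 (adjusted p = 0.0215) and Gp9, the small subunit of the von Willebrand factor receptor, at −0.75 ± 0.23 (adjusted p = 0.0164). Gp1ba (−0.53 ± 0.26, adjusted p = 0.137), Gp1bb (−0.83 ± 0.33, adjusted p = 0.0617), the podoplanin receptor Clec1b (−0.42 ± 0.16, adjusted p = 0.0506) and Treml1 (−0.68 ± 0.27, adjusted p = 0.0631) did not pass. The exons of Gp1bb overlap those of Sept5 and Gm49601 on the same strand, and those of Clec1b overlap Clec9a, so both levels are uncertain.

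The granule genes went different ways. Ppbp (ENSMUSG00000029372; chromosome 5, 90768518 to 90770063, plus strand) had 9.19, 14 and 16.7 CPM in hypoxia vehicle lungs, against 12.5, 32.7, 21.8, 21.5 and 29.8 CPM in normoxia vehicle lungs. All but the lowest normoxic lung lay above the hypoxic range (−0.84 ± 0.24, adjusted p = 0.0142). Its neighbour and fellow chemokine Pf4 had 18.9, 21.6 and 29.7 CPM, against 25.1, 30.9, 25.1, 21.6 and 24.1 CPM, with wide overlap (−0.14 ± 0.14, 95% interval −0.43 to 0.16, adjusted p = 0.519). Thbs1 was at 0.01 ± 0.21 (adjusted p = 0.977), Selp, which tethers leukocytes to platelets and endothelium, at −0.30 ± 0.24 (adjusted p = 0.371), and Nbeal2, needed to form alpha granules, at −0.10 ± 0.09 (adjusted p = 0.424).

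Mmrn1 (ENSMUSG00000054641; chromosome 6, 60924976 to 60989378, plus strand) had 28.3, 36.9 and 44.9 CPM in hypoxia vehicle lungs, against 12.6, 20.8, 14.6, 11.9 and 17.6 CPM in normoxia vehicle lungs. Every hypoxic lung lay above every normoxic lung (1.26 ± 0.16, fold 2.39, adjusted p = 3.35e-06). Multimerin is also made by lymphatic endothelium. Of 7 tested genes of lymphatic and venous endothelium 3 were higher and 1 lower in hypoxia, with Reln at 1.47 ± 0.15 (adjusted p = 1.38e-07), Prox1 at 1.01 ± 0.19 (adjusted p = 0.000349), Pdpn at 0.61 ± 0.13 (adjusted p = 0.000944) and Lyve1 at −1.57 ± 0.25 (adjusted p = 0.000125). The summed level of the 8 genes of this list was 396 to 490 CPM in hypoxia vehicle lungs, against 453 to 617 CPM in normoxia vehicle lungs, and their part in the Mmrn1 result was not tested. The list is a label by prior knowledge, and other lung cells may express its genes, Pdpn included. Gng11 had 221 to 273 CPM in hypoxia, against 149 to 184 CPM in normoxia, without overlap (0.61 ± 0.09, adjusted p = 3.15e-05).

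Of the 8 cytoskeletal and signalling genes 6 were lower and Gng11 was higher. Nrgn (ENSMUSG00000053310; chromosome 9, 37544492 to 37552904, minus strand) had 12.4, 18 and 19.6 CPM in hypoxia vehicle lungs, against 31.6, 61.5, 39.4, 31.4 and 39.5 CPM in normoxia vehicle lungs. The groups did not overlap (−1.26 ± 0.22, adjusted p = 0.000353). Tubb1 had 5.18, 6.21 and 10.7 CPM, against 8.63, 19.7, 10.9, 10.7 and 15.8 CPM, with an overlap at hypoxic replicate 2 (−0.95 ± 0.21, adjusted p = 0.00202). Bin2, a membrane-bending protein of platelets and leukocytes, had 6.81, 8.21 and 11.9 CPM, against 15.3, 15.6, 15, 21.6 and 17.5 CPM, without overlap (−0.92 ± 0.14, adjusted p = 2.67e-05).

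The platelet 12-lipoxygenase Alox12 (−0.85 ± 0.18, adjusted p = 0.00117), the integrin activator Fermt3 (−0.59 ± 0.11, adjusted p = 0.00024) and the kinase substrate Plek (−0.43 ± 0.11, adjusted p = 0.005) were lower as well, while Rgs18, a brake on G proteins, was at −0.35 ± 0.17 (adjusted p = 0.130). Of the transcription factors Nfe2, which drives the last steps of platelet formation, was lower (−0.61 ± 0.14, adjusted p = 0.00236), and Gata1 did not pass (−0.61 ± 0.30, adjusted p = 0.131). The thrombin receptor F2rl2 was lower by a narrow margin (−0.58 ± 0.22, adjusted p = 0.0478), and P2ry12, the ADP receptor blocked by clopidogrel (−0.40 ± 0.20, adjusted p = 0.133), P2ry1 (−0.13 ± 0.17, adjusted p = 0.610) and P2rx1 (0.15 ± 0.19, adjusted p = 0.595) did not pass.

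In all, 7 members lay lower and 2 higher in every hypoxia vehicle lung than in any normoxia vehicle lung, patterns shown by 6.96% and 7.03% of all genes. Some calls rested on single libraries. Without normoxia vehicle replicate 2 the calls of Gp9 (adjusted p = 0.0830), Gp6 (0.0679) and Itgb3 (0.0704) were lost. That of Itgb3 was also lost without normoxia vehicle replicate 5 (0.0529), and that of Gp6 without hypoxia vehicle replicate 3 (0.0548) or 5 (0.0542). The F2rl2 call was also lost with limma-voom (0.0509), without a low-count filter (0.0779), with only the groups compared (0.0757) and without the 3 libraries of conflicting labels (0.0587), and held in only 5 of 22 leave-one-out fits, and those of the other 10 lower members and of Mmrn1 and Gng11 in all 22.

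Hypoxia was also compared with normoxia among the lungs that received ABT-263. Here 23 of 29 members were lower and 2, Gng11 and Mmrn1, higher; over all genes 21.3% were lower, 17.9% higher and 39.2% called in all. The median log2 fold change was −0.79 for the members, against −0.02 over all genes, and −1.42 for the restricted members, of which 10 were lower. The exception was Pf4 (−0.33 ± 0.14, adjusted p = 0.0736). This comparison shares its normoxia ABT-263 libraries with the ABT-263 effect in normoxia and its hypoxia ABT-263 libraries with that in hypoxia, so the results are not independent. That its values are larger than in vehicle lungs is the same contrast as the interaction given above, which was called for no member.

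All 9 adhesion receptors were lower. Itga2b had 15.4, 10.6, 11.7, 8.27 and 9.33 CPM in hypoxia ABT-263 lungs, against 23.2, 37.1 and 48.6 CPM (lowest, median and highest of 6) in normoxia ABT-263 lungs. The groups did not overlap (−1.72 ± 0.20, fold 0.303, adjusted p = 1.18e-06). Gp5 (−1.56 ± 0.20, adjusted p = 1.41e-06), Gp9 (−1.53 ± 0.23, adjusted p = 1.72e-05), Gp1ba (−1.42 ± 0.26, adjusted p = 0.000168) and Gp6 (−1.29 ± 0.27, adjusted p = 0.000606) did not overlap either. Clec1b was at −0.74 ± 0.16 (adjusted p = 0.000822) and Treml1 at −1.18 ± 0.25 (adjusted p = 0.000686).

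Ppbp had 16.5, 7.91, 13.1, 7.85 and 13.1 CPM in hypoxia ABT-263 lungs, against 26.3, 37 and 56.2 CPM in normoxia ABT-263 lungs. No value was shared (−1.70 ± 0.25, adjusted p = 2.56e-05), whereas Pf4 had 27, 22.2, 25.2, 17.1 and 19.5 CPM, against 21.5, 26.6 and 38 CPM, with overlap. Tubb1 had the 9.16, 7.56, 8.27, 6.44 and 9.58 CPM given above, against 17, 25 and 35.1 CPM in normoxia, without overlap (−1.62 ± 0.21, adjusted p = 3.54e-06). Nrgn (−1.47 ± 0.23, adjusted p = 4.38e-05), Alox12 (−1.46 ± 0.18, adjusted p = 1.87e-06) and Gata1 (−1.30 ± 0.30, adjusted p = 0.00147) were lower too, with no overlap between the groups.

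P2ry1 was lower at −0.58 ± 0.17 (adjusted p = 0.00763), Thbs1 at −0.62 ± 0.21 (adjusted p = 0.0264) and P2ry12 at −0.62 ± 0.20 (adjusted p = 0.0149), and P2rx1 did not pass (−0.38 ± 0.18, adjusted p = 0.0925). Mmrn1 had 56, 39, 36.8, 58.1 and 65.3 CPM in hypoxia ABT-263 lungs, against 15.6, 18.3 and 19 CPM in normoxia ABT-263 lungs, far apart (1.54 ± 0.15, adjusted p = 6.88e-08). In all, 17 members lay lower and 2 higher in every hypoxic than in any normoxic ABT-263 lung, against 9.1% and 8.46% of all genes. The Thbs1 call was lost without normoxia ABT-263 replicate 5 (adjusted p = 0.0505) or 6 (0.0753) or hypoxia ABT-263 replicate 2 (0.0623), 3 (0.0626) or 5 (0.0743), and the Gp1bb call (−1.04 ± 0.33, adjusted p = 0.0158) without hypoxia ABT-263 replicate 5 (0.0546). The Thbs1 call was lost too without the 3 libraries of conflicting labels (0.0621) and without a low-count filter (0.0724), and without normoxia ABT-263 replicates 2 and 6 together that of P2ry1 (0.0766). The other 21 lower calls held in all 22 leave-one-out fits.

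**Figure D3:**
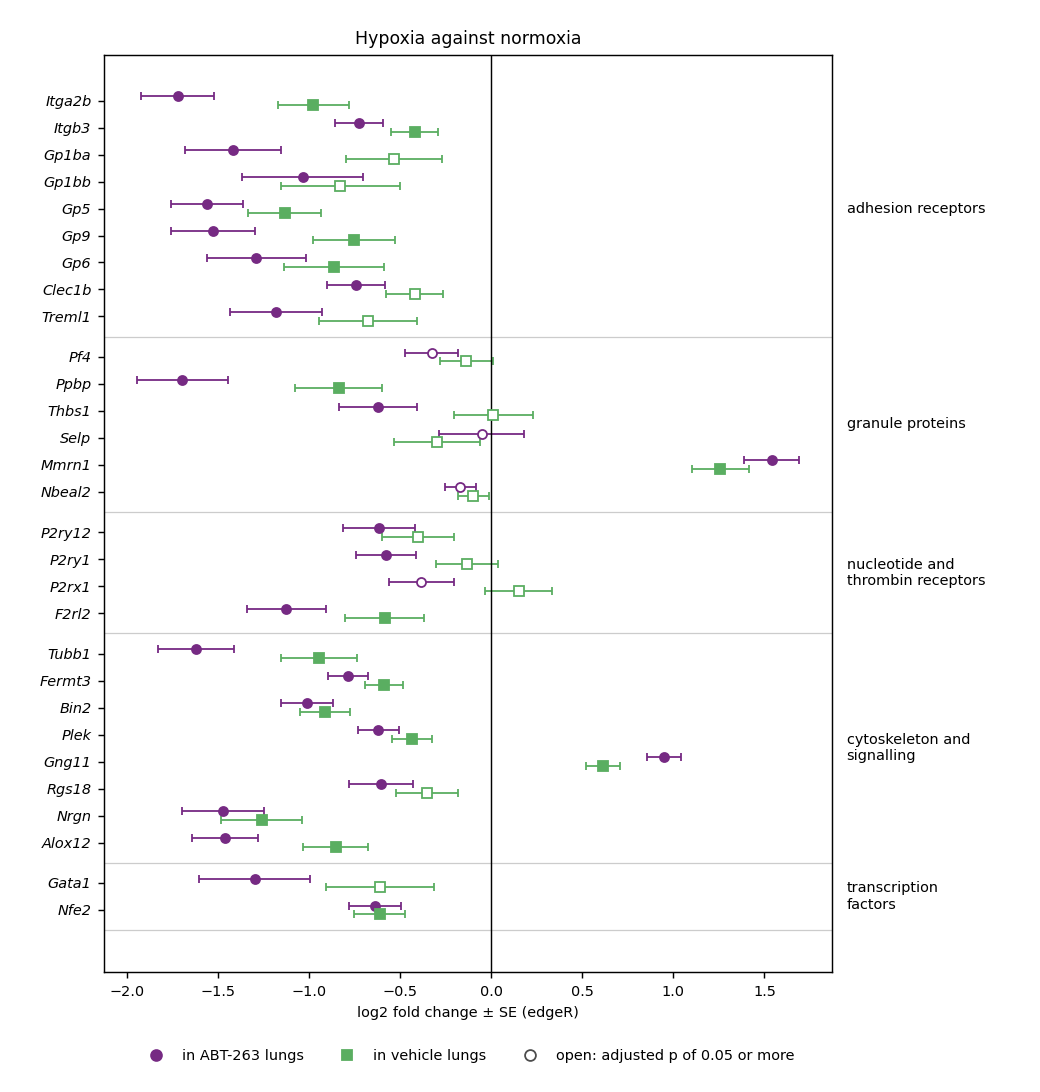
Log2 fold change ± SE of hypoxia against normoxia for the 29 tested members, grouped by role, among ABT-263 lungs (circles) and vehicle lungs (squares); filled symbols mark an adjusted p under 0.05. Most members lie below 0, with Itga2b at −1.72 and −0.98, while Mmrn1 and Gng11 lie above 0. Pf4 lies at −0.33 and −0.14 and is open in both.

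Within each group the highest and the lowest values of many members fell in the same few libraries. Among normoxia ABT-263 lungs replicate 6 was lowest for 20 of 29 members, and replicates 5 and 2 were highest for 13 and 11. Among normoxia vehicle lungs replicate 2 was highest for 20 members and replicate 1 lowest for 16. In hypoxia, replicate 1 of the ABT-263 group was highest for 16 members and replicate 4 lowest for 15, and replicate 5 of the vehicle group was lowest for 14. Summed over the 11 restricted members, the level was 77.6 ± 15.8 CPM (SD, n = 5) in hypoxia ABT-263, 79.9 ± 11.2 (n = 6) in hypoxia vehicle, 182 ± 38.6 (n = 6) in normoxia ABT-263 and 124 ± 27.6 (n = 5) in normoxia vehicle lungs. The 2 normoxia groups overlapped (126 to 242 CPM with ABT-263, against 91.6 to 166 CPM with vehicle), and the highest value in either hypoxia group was 98.6 CPM.

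Markers of other blood and lung cells also differed between the groups, and their part in the platelet results was not tested. Of 10 tested erythroid genes 8 were higher in hypoxia among vehicle lungs and 9 among ABT-263 lungs. The summed erythroid level was 9270 to 13200 CPM in hypoxia vehicle lungs, against 4100 to 5940 CPM in normoxia vehicle lungs, the opposite direction to the restricted platelet members. Of 10 lymphocyte genes 8 were lower in hypoxia among vehicle lungs (116 to 149, against 162 to 293 summed CPM). With ABT-263 in normoxia 5 were lower and none higher (126 to 176 CPM, against 162 to 293 CPM with vehicle). With ABT-263 in hypoxia 2 were lower and none higher (75.2 to 89.5 CPM, against 116 to 149 CPM with vehicle). Whether the lymphocyte calls hold under the alternatives was not looked at.

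Of 9 tested neutrophil genes 3 were lower and 1 higher in hypoxia among vehicle lungs, with summed levels of 212 to 423 CPM, against 251 to 400 CPM. The granule enzyme genes Mpo and Elane, which mark neutrophil precursors, were at or near 0 in every group. Other granule genes of this list, Camp, Ltf and Ngp, passed the low-count filter. With ABT-263 in normoxia their log2 fold changes were 1.01, 1.71 and 0.65. Of the 9 tested neutrophil genes 4 were positive and 5 negative there, and none was called. Of 10 endothelial genes 2 were higher and 4 lower in hypoxia among vehicle lungs, and edgeR called none with ABT-263 in normoxia, where 0 had an unadjusted p under 0.05. The 10 genes of dividing cells summed to 100 to 274 CPM in hypoxia ABT-263 lungs, against 54.9 to 86.8 CPM in hypoxia vehicle lungs, without overlap. All 10 had positive log2 fold changes with an unadjusted p under 0.05 there, and edgeR called none. In normoxia they summed to 33.5 to 288 CPM in normoxia ABT-263 lungs, against 37.3 to 68.7 CPM in normoxia vehicle lungs. All 10 were positive here too, 7 with an unadjusted p under 0.05 and none called.

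The 10 members grouped with leukocytes had a median log2 fold change of −0.51 with hypoxia among vehicle lungs, with 6 lower, and the 6 grouped with endothelium one of −0.06, with 1 lower and 2 higher. With ABT-263 in normoxia these medians were 0.24 and 0.23, and no gene of either list passed. The medians of the restricted members were farther from 0 (−0.83 and 0.68), and the lists were not tested against each other. The leukocyte list is a loose label. It includes Nrgn, Alox12 and F2rl2, all among its 6 lower genes, and the last 2 are described above by their role in platelets.

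**Figure D4:**
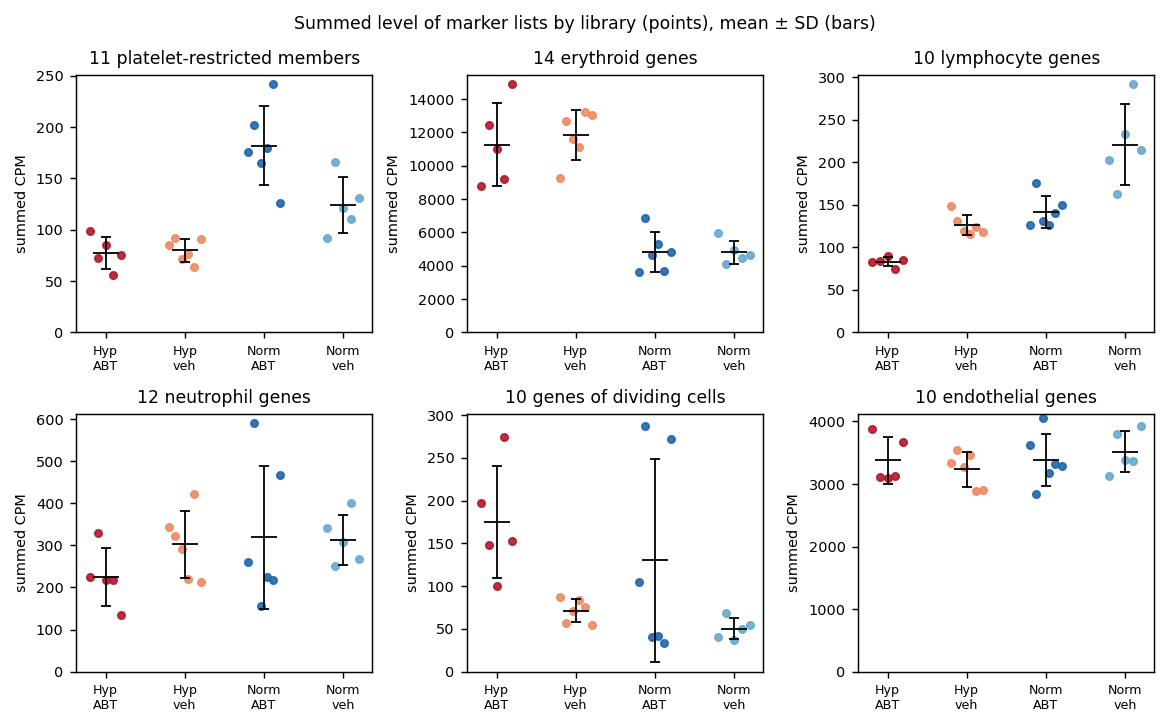
Summed CPM of the 11 restricted platelet members and of 5 lists of other cells in every library, for the hypoxia ABT-263, hypoxia vehicle, normoxia ABT-263 and normoxia vehicle groups; points are libraries and bars mean ± SD. The platelet sum is at most 98.6 CPM in hypoxia and at least 91.6 CPM in normoxia, the erythroid sum runs the other way, and the sum for dividing cells varies widely among normoxia ABT-263 lungs.

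Genes of the same biology outside the 30 had medians nearer to 0 than the members with ABT-263 in normoxia and in both hypoxia comparisons, a difference that was not tested. Of 35 tested genes of platelet function 1 was higher with ABT-263 in normoxia, where 0.108% of all genes were, and the median log2 fold change was 0.05. The gene was Slc6a4, the serotonin transporter, which platelets and lung endothelium use to take up serotonin, with 8.80 ± 1.60 CPM (SD, n = 6) with ABT-263 and 5.19 ± 1.19 CPM (n = 5) with vehicle (0.76 ± 0.15, adjusted p = 0.0254). Whether this call holds under the alternatives was not looked at, and the calls over all genes fell there from 89 to as few as 0. In hypoxia among vehicle lungs 12 of the 35 were lower and 4 higher, against 12.8% and 13.5% of all genes, with a median of −0.13. Among those lower were the signalling proteins Plcg2 (−0.89 ± 0.11, adjusted p = 2.09e-06), Fyb (−0.96 ± 0.14, adjusted p = 2.57e-05) and Syk (−0.66 ± 0.10, adjusted p = 5.45e-05), all shared with leukocytes. The small GTPase gene Rap1b was higher (0.47 ± 0.08, adjusted p = 6.64e-05). Among ABT-263 lungs 14 were lower and 5 higher, against 21.3% and 17.9% of all genes, with a median of −0.21.

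Of 15 tested genes of megakaryocyte development 6 were lower and none higher in hypoxia among vehicle lungs (median −0.21), and 8 lower and 2 higher among ABT-263 lungs (median −0.44), beside the same shares of all genes. The transcription factor genes Meis1 (−0.56 ± 0.09, adjusted p = 6.21e-05) and Runx1 (−0.36 ± 0.11, adjusted p = 0.0151) were lower in hypoxia among vehicle lungs. With edgeR no gene of this list was called with ABT-263 in either oxygen condition, where 2 had an unadjusted p under 0.05 in normoxia and 4 in hypoxia.

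Bcl2l1, which codes for BCL-XL, averaged 115 ± 11.3 CPM (SD, n = 5) in hypoxia ABT-263, 101 ± 9.79 (n = 6) in hypoxia vehicle, 112 ± 20.9 (n = 6) in normoxia ABT-263 and 89.9 ± 14.9 CPM (n = 5) in normoxia vehicle lungs. Many lung cells express it, so these levels say little about platelets. Its log2 fold change with ABT-263 was 0.19 ± 0.11 in hypoxia (adjusted p = 0.440) and 0.32 ± 0.11 in normoxia (adjusted p = 0.195). The death effector gene Bak1 was not called in any of the 4 comparisons between 2 groups, and Bax was higher in hypoxia among ABT-263 lungs (0.40 ± 0.08, adjusted p = 0.000221) and vehicle lungs (0.33 ± 0.08, adjusted p = 0.00271).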

How the data were processed

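Whole lung RNA was sequenced as 22 TruSeq stranded mRNA libraries on an Illumina NextSeq, per the labels. The authors deposited expected counts per gene. Trimmomatic, STAR, RSEM and the GRCm38 build are named in the submitters' processing notes without versions, and the strand setting of the counting is not given in the sources used here. Fermt3, P2ry12, P2ry1, Plek, Selp and Thbs1 overlap genes on the opposite strand and are uncertain for that reason. Groups follow the titles. Replicates were numbered by accession order, which pairs no samples. All pairs of libraries in a group differed by more than sampling noise, with a chi-square per gene of 5.15 to 37.4.

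Expected counts were rounded and filtered with filterByExpr (minimum count 10), leaving 16638 genes. The 4 groups were fitted together with edgeR 4.0.16 in R 4.3.3, using TMM factors and its robust quasi-likelihood test, with Benjamini-Hochberg adjustment over all genes and 0.05 as threshold. CPM use unrounded counts. Coordinates and exon lengths are from GENCODE M21, which held 54495 of the 54532 identifiers. Promoters are from RefSeq.

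Values per library are given for members that passed for ABT-263, filled up to 6 by the smallest p averaged over oxygen (Tubb1, Gp5, P2ry1, P2rx1, Treml1, Mmrn1), and for the 6 largest hypoxia calls in vehicle lungs. Up to 4 genes per other list are named by smallest p. The neutrophil granule genes were named outside this rule. Members, lists, tests and rules were chosen with earlier results of these data known.

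Alternatives were DESeq2 1.42.0, limma-voom (limma 3.58.1), no filter on low counts, a filter of at least 1 CPM in 4 libraries, RLE factors, unscaled library totals, only the groups compared, haemoglobin genes left out, the 3 libraries of conflicting labels left out, treatment read from the tag, an added 1.5-fold threshold, normoxia ABT-263 replicates 2 and 6, which earlier work on these data found apart, left out together, and each library left out in turn. The fit was tested on simulated data. Figures were drawn with matplotlib 3.10.9. Some genes of the other lists are not reported here.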

Additional observations from a re-analysis of the deposited data

Results flagged for a closer look

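Among 116 combinations of a member and a group, 7 held a library far from the others of its group by Dixon's criterion, which by chance flags about 1 in 20 groups. In normoxia ABT-263, Rgs18 had 15.4 CPM in replicate 2, against 8.15 to 10.6 CPM in the other lungs. In normoxia vehicle, Nrgn (61.5 CPM, others 31.4 to 39.5) and P2ry12 (7.49 CPM, others 3.91 to 4.77) stood high in replicate 2, the lung that was highest for 20 of 29 members. In hypoxia ABT-263, Gng11 (200 CPM, others 275 to 301) and Rgs18 (4.03 CPM, others 7.13 to 8.08) stood low in replicate 4, the lung that was lowest for 15 members. In hypoxia vehicle, Tubb1 had 10.7 CPM in replicate 2 (others 5.18 to 6.93) and Clec1b 14.8 CPM in replicate 6 (others 11.4 to 12.6).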

How the results depend on the processing

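Members called higher with ABT-263 in normoxia numbered 1, but 7 with DESeq2, 4 with limma-voom, 3 without normoxia ABT-263 replicates 2 and 6, and 0 without a low-count filter, with only the groups compared, without the 3 libraries of conflicting labels and with treatment read from the tag, and 0 to 6 when 1 library was dropped at a time. Averaged over oxygen it was 3, but 5 with DESeq2, 1 with an added 1.5-fold threshold, and 0 without a low-count filter, without the 3 libraries and with the tag, and 0 to 5 when 1 library was dropped. For ABT-263 in hypoxia and for the interaction the count was 0 under every alternative run. For hypoxia it stayed within 12 and 18 among vehicle lungs and 23 and 26 among ABT-263 lungs with each library left out, around main counts of 16 and 25. With an added 1.5-fold threshold Plek, Itgb3 and F2rl2 among vehicle lungs and P2ry1 among ABT-263 lungs lost their hypoxia calls, since their changes were smaller than that. Over all genes the calls with ABT-263 ranged over the alternatives from 0 with the tag to 327 in normoxia (main 89), 257 in hypoxia (main 50) and 773 averaged over oxygen (main 423), and those with hypoxia were 1247 among vehicle lungs (main 4380) and 1920 among ABT-263 lungs (main 6525) with an added 1.5-fold threshold. Among log2 fold changes of single members under alternatives 1874 kept their direction and call, 1 reversed (P2rx1 with ABT-263 in hypoxia, −0.04 with the tag), 105 lost and 20 gained their call; the cause was not tested. The restricted members stayed 11 of 11 positive with ABT-263 in normoxia with DESeq2, with limma-voom and with the tag (medians 0.68, 0.71 and 0.59). No paired analysis was possible because the replicates were numbered by accession order, which marks no shared animal or batch. Gata1 and Treml1, under 3 CPM in every library, had as few as 5 and 7 counts, which limits the precision of their fold changes.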
